A study of Homo sapiens with 4 samples.

Results

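Serum albumin and its relatives, together with proteins that the fetal liver makes and liver tumours make again, were examined in PLC8024 cells sorted for CD133. Members were 9 genes taken by name: the albumin family genes ALB, AFP, AFM and GC, the oncofetal genes GPC3, H19 and DLK1, and ZHX2 and ZBTB20, which encode repressors of AFP. Each was followed through every probe set that the array's annotation assigns to that gene alone, which gave 24 probe sets of 7 genes, out of 19775 genes and 54675 probe sets in all. GC is not analysed here, nor is H19, whose probe sets are listed together with a second gene.

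PLC8024 is a human hepatocellular carcinoma line, and CD133, encoded by PROM1, is a membrane protein by which tumour-initiating liver cells are often sorted. Flow cytometry separated its cells into a CD133+ and a CD133- population, which share the line and carry no further treatment in the labels, and total RNA of each was measured on an oligonucleotide array. The deposit holds 4 columns: 1 array value per population as RMA output (log2 values) and 1 as MAS5 output (linear intensities). These are 2 processings and were never treated as replicates, so no difference here has an error between sorts or cultures, no test was possible, and the sources used here do not give the purity of the sort. All findings concern 1 cell line.

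The albumin family genes descend from a common ancestor and encode plasma carrier proteins secreted by hepatocytes. The fetal liver makes alpha-fetoprotein (AFP), which is shut down after birth while albumin stays high, and many hepatocellular carcinomas make AFP again. ZHX2 and ZBTB20 are zinc-finger transcription factors that hold AFP down in the postnatal liver, and H19 and GPC3 are known in mice to respond to the same ZHX2 control. GPC3, DLK1 and AFP are read in pathology and research as marks of a fetal liver programme.

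ALB, AFP and AFM lie side by side on chromosome 4, and their promoters are shown because ALB and AFP had the member set's largest differences while AFM stayed under the detection floor. Each sequence runs from 250 bases before to 50 bases after the RefSeq start site, on the plus strand of GRCh38.p14. Capitals mark the letters GTTAATNAT, the first part of the consensus of the hepatocyte factor HNF1, where N is any base. The windows are chr4:73404037-73404336 for ALB, chr4:73435971-73436270 for AFP and chr4:73481495-73481794 for AFM.
ALB: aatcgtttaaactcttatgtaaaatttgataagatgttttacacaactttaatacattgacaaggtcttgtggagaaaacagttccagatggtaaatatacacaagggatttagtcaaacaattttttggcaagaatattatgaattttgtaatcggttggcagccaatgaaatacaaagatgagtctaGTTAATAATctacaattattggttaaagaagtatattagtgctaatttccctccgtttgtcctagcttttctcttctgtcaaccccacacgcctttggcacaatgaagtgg
AFP: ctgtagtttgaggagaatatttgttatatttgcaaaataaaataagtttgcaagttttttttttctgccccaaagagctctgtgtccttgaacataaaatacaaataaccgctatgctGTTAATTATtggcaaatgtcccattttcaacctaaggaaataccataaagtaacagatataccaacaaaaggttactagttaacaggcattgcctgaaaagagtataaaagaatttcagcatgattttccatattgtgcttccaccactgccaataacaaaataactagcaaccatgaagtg
AFM: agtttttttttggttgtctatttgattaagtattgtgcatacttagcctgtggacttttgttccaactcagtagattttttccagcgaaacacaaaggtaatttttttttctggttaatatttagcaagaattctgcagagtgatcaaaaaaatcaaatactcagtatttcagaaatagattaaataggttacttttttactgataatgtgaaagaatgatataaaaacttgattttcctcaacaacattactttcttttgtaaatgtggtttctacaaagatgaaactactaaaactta

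The HNF1 letters occurred once in the ALB window, from -61 to -53 relative to the start site, and once in the AFP window, from -132 to -124. They were not found in the AFM window on either strand. Only exact letters were searched for, and the AFM window holds GTTAATATT, which departs from GTTAATNAT by 1 letter. The same letters as in AFP, GTTAATTAT, also occurred from -180 to -172 in a promoter window of ZBTB20, a member that was not counted as lower. Of all 35116 RefSeq promoter windows of this length, 0.792% hold the letters GTTAATNAT on at least 1 strand. The TATA box letters TATAAA, held by 11.5% of windows, were found at -29 to -24 in AFP and at -30 to -25 in AFM, and not in ALB. The letters CCAAT, held by 34.6% of windows, were found on the gene's strand at -86 to -82 in ALB and at 19 to 23 in AFP, and as the reverse complement at -44 to -40 in ALB and at -125 to -121 in AFP, where they overlap the last letters of the HNF1 match. CAAGGTC, letters bound by NR5A2, were in the ALB window at -190 to -184 and in 3.36% of all windows, and TGTTTGC, letters of FOXA factors, were in none of these 3 windows and in 3.89% of all. All motifs were searched on both strands with letters chosen when these promoters were known, and a match is a match of letters only. The arrays do not measure binding.

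Values are read as follows. Each gene was read from its brightest probe set, by the RMA mean of both populations. It passed a detection floor if RMA in the population with more signal was at or over that column's median, which was 5.16 in CD133+ and 5.14 in CD133-; the files used here hold no detection calls. Genes past the floor were counted as higher or lower if RMA and MAS5 both showed a difference of 2-fold or more with the same sign. Over the 13116 genes above the floor, 1.09% were counted as lower and 2.25% as higher in CD133+. Of the 5 member genes above the floor, 3 were counted as lower (ALB, AFP and GPC3) and none as higher, while ZHX2 and ZBTB20 were not counted. The members were chosen with earlier results of these arrays known, so this share is a description.

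**Figure D1:**
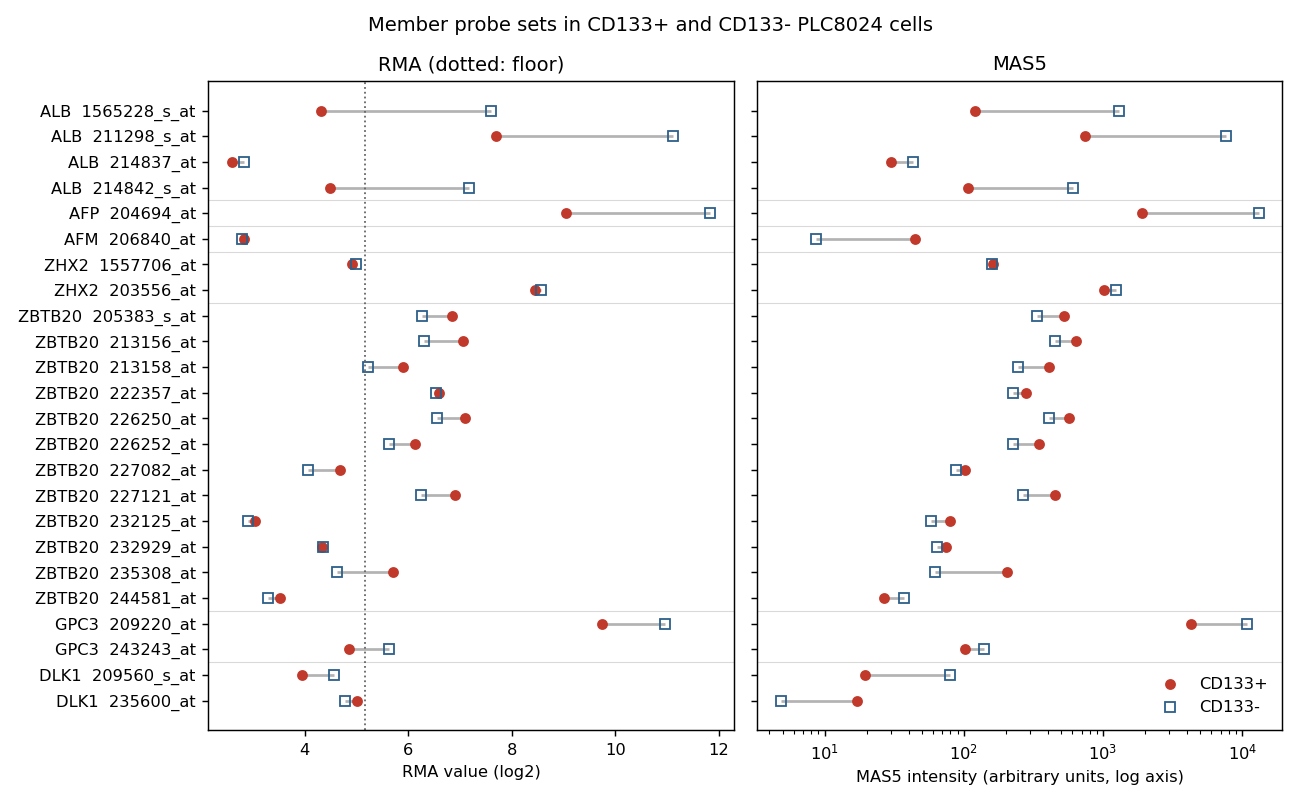
RMA values (left, log2) and MAS5 intensities (right, log axis) of the 24 member probe sets, with filled circles for CD133+ and open squares for CD133- and 1 array value per point. The dotted line is the CD133+ floor of 5.16. The ALB probe sets above the floor, AFP and GPC3 lie to the left in CD133+, and most ZBTB20 probe sets lie slightly to the right.

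The sort and the tissue labels were checked on the same arrays. PROM1 had RMA signals of 10.35 in CD133+ and 6.04 in CD133-, in the direction of the labels. All 8 hepatocyte markers (ALB, AFP, TTR, SERPINA1, APOA1, APOA2, APOB and TF) were above the floor in both populations, and ALB, AFP and APOA1 were counted as lower. The other 5 had RMA differences from -0.71 for APOA2, a lipoprotein component, to 0.28 for TTR, the thyroid hormone carrier transthyretin, and none was counted. In bulk RNA of a sorted population, fewer cells making a transcript and less transcript per cell cannot be told apart.

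Albumin, the main carrier and osmotic protein of plasma, was the gene with the lowest RMA difference of all 13116 genes above the floor. Its probe set 211298_s_at had an RMA value of 7.70 in CD133+ and 11.12 in CD133-, and MAS5 intensities of 746.1 and 7591. That is 10.7-fold lower in CD133+ in RMA, with a log2 difference of -3.42 (RMA) or -3.35 (MAS5). In MAS5 it ranked 23rd from the lowest. The albumin signal of this probe set was above the floor in both populations.

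Of the other albumin probe sets, both above the floor were also lower in CD133+. Probe set 1565228_s_at had RMA signals of 4.32 in CD133+ and 7.61 in CD133-, with MAS5 intensities of 120.8 and 1302. Probe set 214842_s_at had 4.49 and 7.18, with MAS5 intensities of 106.1 and 607.9. Both were under the floor in CD133+, so their differences of -3.29 and -2.69 in RMA, and -3.43 and -2.52 in MAS5, are given without a fold. The fourth, 214837_at, was under the floor in both populations, at 2.60 and 2.82, and its difference was -0.22. The 3 probe sets above the floor were all counted as lower. The share over the array's 23625 such probe sets was 1.13%, but nothing is read from it here, since 1565228_s_at and 214842_s_at passed the floor through CD133- alone. The 3 spread over 0.73 in RMA. Over 6170 genes, the gap between the first and second probe sets had a 95th percentile of 0.70, which does not measure a spread of 3. The first and second of ALB, 211298_s_at and 1565228_s_at, had RMA differences of -3.42 and -3.29. All 3 are _s_at probe sets, a class that may match more than 1 transcript, and without that class ALB is not above the floor.

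Alpha-fetoprotein, the fetal counterpart of albumin and a serum marker of liver cancer, has 1 probe set. Its RMA value was 9.05 in CD133+ and 11.83 in CD133-, and its MAS5 intensities were 1889 and 13116. AFP was 6.86-fold lower in CD133+ in RMA, with a log2 difference of -2.78, and the MAS5 difference was -2.80. It ranked 13th from the lowest RMA difference and 60th in MAS5. The signal was above the floor in both populations, and the fetal and the adult member of the family were thus both lower in CD133+. The difference between ALB and AFP in RMA, with 1 array per population, has no error to be set against.

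Afamin (AFM), a carrier of vitamin E, was not above the floor in either population. Its 1 probe set had RMA signals of 2.82 in CD133+ and 2.78 in CD133-, and MAS5 intensities of 44.3 and 8.58. The RMA difference was 0.04 and the MAS5 difference 2.37, so the processings part in size for a signal that neither population holds above the floor. No direction is given for AFM.

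**Figure D2:**
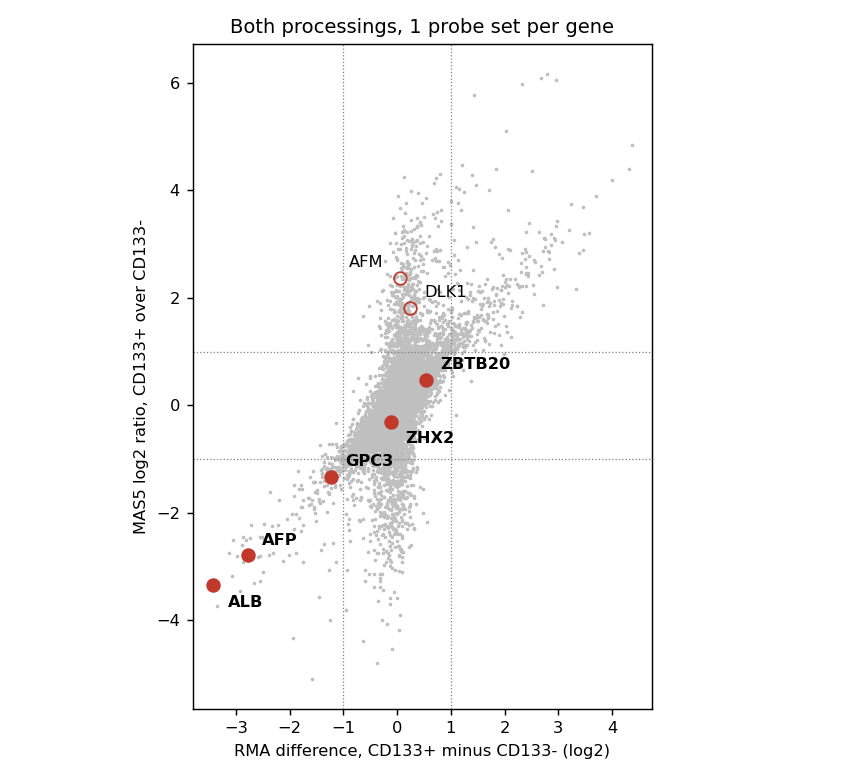
RMA difference (horizontal, log2) against MAS5 log2 ratio (vertical), CD133+ against CD133-, for the 13116 genes above the floor (grey, 1 probe set a gene) and the members (red, filled when above the floor). Dotted lines mark 2-fold. ALB at -3.42, AFP at -2.78 and GPC3 at -1.23 lie near the diagonal on the lower left, ZBTB20 and ZHX2 lie inside the 2-fold lines, and the open circles of AFM and DLK1 depart from the diagonal.

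On chromosome 4, ALB and AFP lie near chemokine genes that were higher in CD133+. In the order of RefSeq protein-coding genes from GC to CXCL2, a stretch chosen after the values were seen, 17 of 18 genes had a probe set and 12 were above the floor. Only ALB and AFP were counted as lower among these, and CXCL6, CXCL1, PF4, CXCL5 and CXCL3, genes of CXC chemokines, were counted as higher. Over all genes above the floor, 1.09% were counted as lower and 2.25% as higher. Nothing is read from the stretch's counts, since it was chosen after the values were seen. CXCL6 passed the floor through CD133+ alone, with RMA signals of 7.02 in CD133+ and 4.08 in CD133-. Chemokine genes are close in sequence, and the probe sets of PF4, CXCL5, CXCL8 and CXCL2 are of the _x_at class, which can share signal between genes. On the near side, COX18, for a mitochondrial assembly factor, and ANKRD17 had RMA differences of 0.42 and 0.04. RASSF6, which lies between AFM and the chemokine genes, had RMA signals of 5.74 in CD133+ and 5.31 in CD133- and a difference of 0.43. CXCL8, the next gene, had 11.34 and 10.41, and CXCL5 had 11.50 and 8.77. ALB and AFP thus stood between genes with RMA differences above 0 on either side, and AFM, under the floor, carried no usable value.

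**Figure D3:**
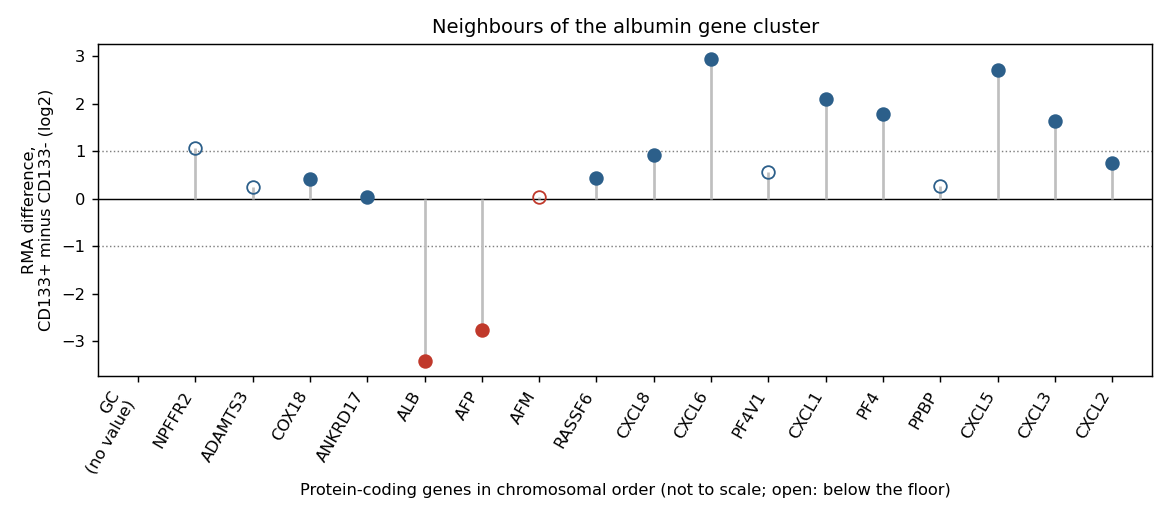
RMA difference (log2, CD133+ minus CD133-) of 18 neighbouring protein-coding genes on chromosome 4 in gene order, with albumin family members in red, others in blue and open circles for genes under the floor. Dotted lines mark 2-fold. ALB and AFP are at -3.42 and -2.78, and CXCL6 and CXCL5 at 2.94 and 2.72.

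Among the oncofetal members, glypican-3 (GPC3), a heparan sulfate proteoglycan anchored to the cell surface and used as a diagnostic stain for hepatocellular carcinoma, was lower in CD133+. Probe set 209220_at had RMA signals of 9.74 in CD133+ and 10.97 in CD133-, and MAS5 intensities of 4257 and 10765. That is 2.35-fold lower in RMA, with a log2 difference of -1.23 (RMA) or -1.34 (MAS5). The gene ranked 113th from the lowest of the 13116. The second probe set, 243243_at, had RMA signals of 4.84 and 5.62 and MAS5 intensities of 101.4 and 140.5. It was under the floor in CD133+, and its differences of -0.78 (RMA) and -0.47 (MAS5) did not meet the count rule. The probe sets lay 0.45 apart in RMA and 0.87 in MAS5, within the 95th percentiles of such gaps, 0.70 and 1.64. Nothing is read from their shared sign, since 243243_at passed the floor through CD133- alone. With the median over both probe sets the MAS5 difference was -0.90, and GPC3 was not counted.

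Delta-like non-canonical Notch ligand 1 (DLK1), an imprinted membrane protein of hepatoblasts and preadipocytes, was under the floor. Probe set 235600_at had RMA signals of 5.01 in CD133+ and 4.78 in CD133-, and 209560_s_at had 3.94 and 4.55. The first had differences of 0.23 (RMA) and 1.81 (MAS5), and the second of -0.62 and -2.01. The probe sets went opposite ways, and no direction is given.

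Of the repressors of AFP, ZHX2 differed little. Its probe set 203556_at had RMA signals of 8.45 in CD133+ and 8.56 in CD133-, and MAS5 intensities of 1008 and 1243, with differences of -0.11 and -0.30. Of all genes above the floor, 30.4% had a smaller absolute RMA difference. The second ZHX2 probe set, 1557706_at, was under the floor with 4.92 and 4.98. The ZHX2 transcript was above the floor in both populations by 203556_at, with a difference below the SD of 0.35 between 2 probe sets of 1 gene.

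ZBTB20, the other repressor, leaned to CD133+ without meeting the count rule. Its main probe set, 226250_at, had RMA signals of 7.09 in CD133+ and 6.56 in CD133-, and MAS5 intensities of 567.2 and 408.8. The differences were 0.54 in RMA and 0.47 in MAS5, and 6.97% of the genes above the floor had a higher RMA difference. Of its 12 probe sets 7 were above the floor in both populations, and all 7 were on the CD133+ side in both processings, against 36.2% of the 21947 probe sets above the floor in both. These 7 share 1 gene and the same arrays and are not replicates. Their RMA differences ran from 0.07 for 222357_at to 0.76 for 213156_at with a median of 0.58, and their MAS5 differences from 0.30 to 0.75 with a median of 0.64.

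An eighth probe set, 235308_at, passed the floor through CD133+ alone and was the one past 2-fold in both processings. It had RMA signals of 5.70 in CD133+ and 4.61 in CD133-, and MAS5 intensities of 204.1 and 61.6, with differences of 1.09 and 1.73. Among probe sets above the floor, 1.92% were counted as higher. At the lower end of the 7, 222357_at had RMA signals of 6.59 and 6.53. Of the 4 probe sets under the floor, 227082_at, 244581_at and 232125_at had RMA differences of 0.62, 0.24 and 0.14, and 232929_at had -0.03.

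**Figure D4:**
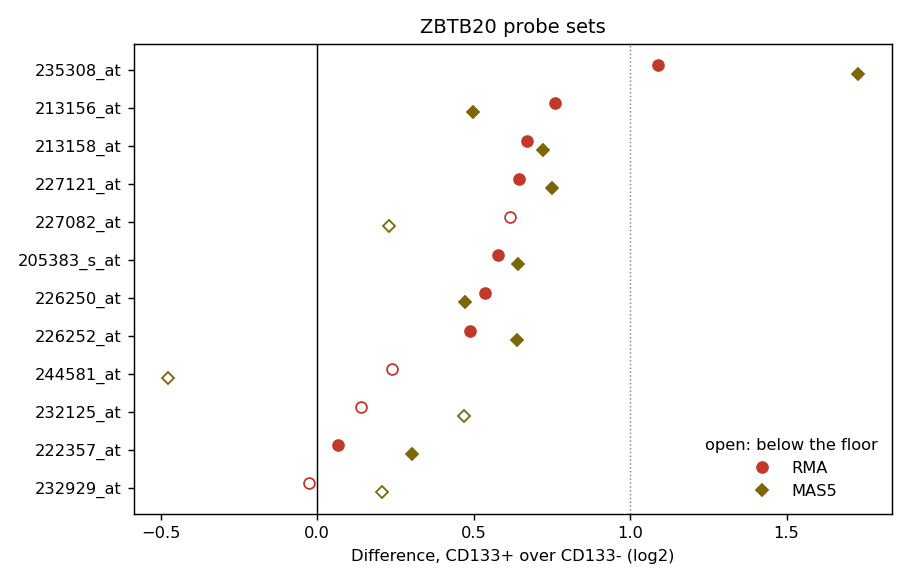
Difference between CD133+ and CD133- (log2) for the 12 ZBTB20 probe sets in RMA (circles) and MAS5 (diamonds), open where the probe set was under the floor, with the dotted line at 2-fold. The 7 probe sets above the floor in both populations have RMA differences from 0.07 to 0.76, and 235308_at, above it in CD133+ alone, has 1.09.

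Each member was set beside the 3 genes above the floor with the nearest pair of RMA and MAS5 differences, which rests on 1 comparison of 2 populations. For AFP they were ENPP2, the gene of autotaxin, with -2.83 in RMA and -2.76 in MAS5, AKR1C3, an aldo-keto reductase, with -2.70 and -2.84, and DDC, the aromatic amino acid decarboxylase, with -2.87 and -2.91. For ALB, which had no gene within a distance of 0.1, they were FOXF2 at -3.07 and -3.18, MBNL3 at -3.35 and -3.73, and MAL2 at -2.92 and -3.45. For GPC3 they were GRB10, VIM and GPD1L, with RMA differences of -1.27, -1.24 and -1.28. ZBTB20 had 127 genes within 0.1, the nearest being AS3MT, ZNF678 and TMEM185B, and ZHX2 had 425, the nearest being ZNF407, E2F2 and AGO1, so likeness says little for either.

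Other genes of the fetal liver programme did not follow AFP and GPC3 as a group. Of 17 further oncofetal genes, 15 had a probe set and 10 were above the floor, of which 1 was counted as higher and none as lower. Their median RMA difference was -0.08, against 0.00 over all genes above the floor, of which 1.09% were counted as lower and 2.25% as higher. MDK, for the heparin-binding growth factor midkine, was the higher one, with RMA signals of 11.01 in CD133+ and 8.61 in CD133-, MAS5 intensities of 9010 and 1240, and differences of 2.40 and 2.86. TSPAN8, a tetraspanin, had 8.60 and 9.50 and a difference of -0.90, and SALL4, a fetal zinc-finger factor, had 7.39 and 7.78 and a difference of -0.39. IGF2BP3, an oncofetal RNA-binding protein, had 9.14 and 9.38 and a difference of -0.24, and 4 probe sets from -0.93 to 0.18.

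Known regulators of AFP and ALB gave no counted gene when each was read from its brightest probe set. Of 24 listed, 19 had a probe set and 18 were above the floor, with 10 differences below 0, 7 above and a median of -0.06. No counted gene among 18 is near the shares over all genes above the floor, 1.09% lower and 2.25% higher. Nothing is read from this count. CEBPA, a liver-enriched activator of albumin transcription, came closest, with RMA signals of 8.07 in CD133+ and 9.03 in CD133-, MAS5 intensities of 798.6 and 1538, and differences of -0.96 and -0.95. CEBPD had -0.38 in RMA and -0.38 in MAS5 by its brightest probe set. With the median over its 2 probe sets it was counted as lower, so its probe sets differ in size. ZHX1, the relative of ZHX2, had 6.13 and 6.72 and a difference of -0.58 in RMA and -0.28 in MAS5. ONECUT1, a hepatocyte nuclear factor, had a difference of -0.44. NFIC, of the nuclear factor I family, had 0.39 in RMA and -0.47 in MAS5.

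Other plasma proteins made by hepatocytes went both ways. Of 20 listed, 18 were above the floor, of which 2 were counted as lower and 1 as higher, with a median of -0.23 in RMA and -0.02 in MAS5. The shares over all genes above the floor were 1.09% lower and 2.25% higher. In RMA 12 of the 18 were below 0. APOA1, the main protein of high-density lipoprotein, had RMA signals of 6.60 in CD133+ and 8.39 in CD133-, and HPX, the haem carrier hemopexin, had 7.81 and 9.02. APOA1 had log2 differences of -1.80 (RMA) and -2.34 (MAS5), and HPX of -1.21 and -1.22. RBP4, the plasma retinol carrier, was the higher one, with 11.52 and 9.89 and differences of 1.63 and 1.57. HP, for haptoglobin, had a difference of -0.94 in RMA and -2.03 in MAS5 and was not counted.

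Among the glypicans other than GPC3, 4 of 5 were above the floor and 1 was counted as lower. Of all genes above the floor, 1.09% were counted as lower and 2.25% as higher. GPC4 had RMA signals of 4.76 in CD133+, under the floor, and 6.06 in CD133-, with differences of -1.31 (RMA) and -1.98 (MAS5), and its second probe set had -1.86 and -1.92. GPC6 had 9.15 and 8.21 and differences of 0.94 (RMA) and 1.11 (MAS5), and was not counted. GPC1 had differences of -0.04 (RMA) and -0.54 (MAS5), and GPC2 of 0.00 and 1.88. The list's median was -0.02 in RMA and 0.29 in MAS5.

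**Figure D5:**
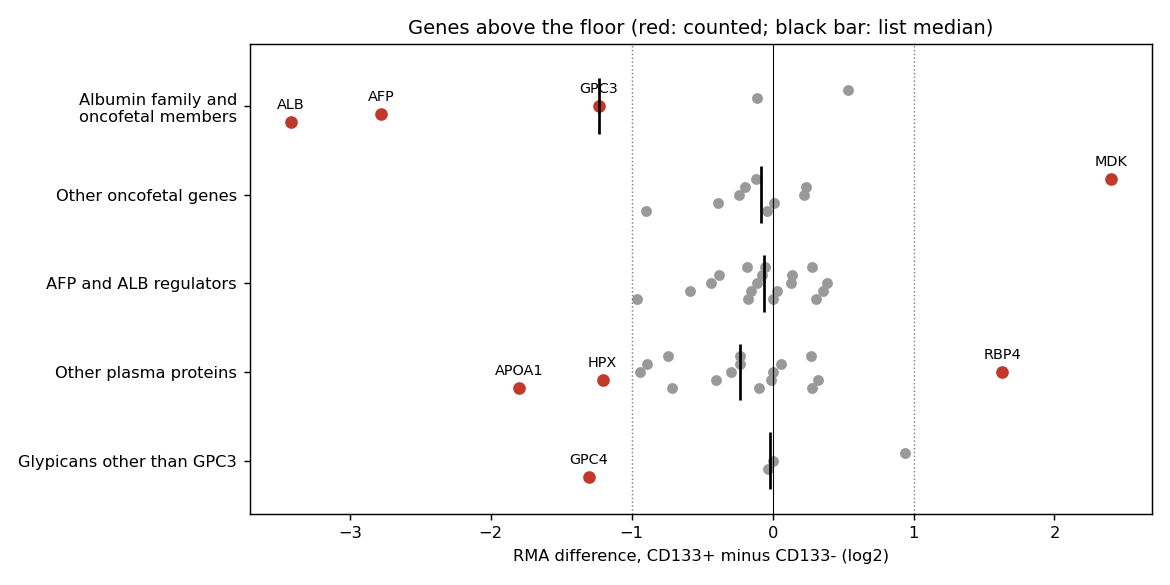
RMA differences (horizontal, log2) of the genes above the floor in each list, with counted genes in red and named, list medians as black bars and 2-fold as dotted lines. The members' median is -1.23, and the other lists have medians from -0.23 to -0.02.

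Markers of other cells were read on the same arrays, and those named here were picked after their values were seen. Of 6 biliary cell markers 4 were above the floor, with KRT19 counted as higher, at 7.33 in CD133+ and 4.38 in CD133-, and SOX9 as lower, at 6.16 and 7.69, while EPCAM was under the floor in both. The MAS5 values summed over the biliary list were 1730 in CD133+ and 1361 in CD133-. Of 8 leukocyte markers 5 were above the floor, with LYZ counted as higher, and the summed values were 10644 and 4398, of which LYZ made 10257 and 4008; PTPRC, which marks leukocytes, was under the floor at 3.01 and 2.94. Of 6 endothelial markers, PECAM1 alone was above the floor and was counted as lower, at 6.11 and 7.87, with summed values of 366.4 and 1002. Of 8 fibroblast and stellate cell markers 4 were above the floor and none was counted, with sums of 1099 and 671.1, and of 2 erythroid markers with a probe set neither was counted, with sums of 210.1 and 173.7. For comparison, 1.09% of all genes above the floor were counted as lower and 2.25% as higher. The part of these markers in the differences of ALB, AFP and GPC3 was not tested.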

How the data were processed

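RNA of 1 CD133+ and 1 CD133- population of sorted PLC8024 cells was labelled with biotin and measured on oligonucleotide arrays, per the labels. The authors deposited MAS5 intensity on a linear scale, and RMA output on a log2 scale. The submitters' processing notes name GCOS, MAS5 and RMA; the sources used here give neither versions nor the arrays normalized together. RMA draws small low-level differences towards 0, and MAS5 gives low signals wide log ratios, so both were read.

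Of 54675 probe sets, 41097 have 1 gene in GEO's platform annotation, 1801 several and 11777 none or no entry; only the first were named, and the symbols of 41043 were updated by gene ID from RefSeq (GRCh38.p14). Differences are RMA in CD133+ minus CD133-, and log2 of the MAS5 ratio (Python 3.11.15, pandas 2.3.3). No build is named for the array, so positions belong to RefSeq's promoter table only, which holds 5 of the 9 members. The counting was tested on simulated data. The number of arrays limits the precision. The members and lists were chosen with earlier results of these data known. Named genes are all members, the 3 nearest genes of each member, PROM1 and the hepatocyte markers. In each list other than the cell marker lists, the counted genes and the 4 largest differences above the floor are named. Others were counted under an alternative setting, or are said to have been picked after their values were seen.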

Additional observations from a re-analysis of the deposited data

How the results depend on the processing

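With 1 array per population, alternatives change only the processing, and MAS5 values near background limit what can be read. No paired analysis was possible because each group has 1 sample and the results come from no test. The count of 3 members lower in CD133+ (ALB, AFP and GPC3) was 3 in RMA alone, in MAS5 alone, with a pseudocount of 50, with no floor, at 1.5-fold and with the floor raised to the 75th percentile. It was also 3 with the floor required in both populations, an alternative chosen after seeing the data. The share of all genes counted as lower, 1.09% in the main setting, was 5.60% in MAS5 alone and 4.17% at 1.5-fold, and from 0.252% to 1.35% in the other settings. The member count was 2 at 4-fold and with the probe sets' median, both without GPC3, and 2 without the _x_at and _s_at classes, where ALB was lost. No member was counted as higher under any of the 10 alternatives. Of 135 comparisons with an alternative, 115 stayed the same and 20 moved, where a difference had to stay within 0.35, the SD between probe sets, and a count within 1.5 times. By this rule a fall from 3 members to 2 stayed the same, even where ALB was lost. Subtracting the median difference over all probe sets left every member's difference unchanged. The 115 is thus no measure of how firm the results are.

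The RMA difference of ALB was -2.99 with the median over probe sets and -0.22 without the _x_at and _s_at classes, where the remaining probe set is under the floor. For AFM, under the floor, the MAS5 difference was 2.37, and 0.69 with a pseudocount of 50. For DLK1, also under the floor, it was 1.81 in MAS5, and the median over probe sets in RMA was -0.19. At 1.5-fold the lower counts were 1 in the other oncofetal genes (TSPAN8), 1 in the regulators (CEBPA) and 5 in the plasma proteins, and the higher count of glypicans was 1 (GPC6), where 4.17% of all genes were counted as lower and 5.32% as higher. With the median over probe sets 1 regulator, CEBPD, was lower. Without _x_at and _s_at probe sets the plasma proteins had 1 lower (HPX) and 0 higher. At 4-fold they had 0 lower and 0 higher, and the glypicans 0 lower. In MAS5 alone 2 plasma proteins (TTR and RBP4) and 2 glypicans (GPC2 and GPC6) were higher, as were 7.65% of all genes. With the floor at the 75th percentile, or required in both populations, 0 glypicans were lower.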
